A study of Mus musculus with 4 samples.

Results

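Nnt and 9 further nuclear genes of the mitochondrial NADPH and redox system were followed in lung group 2 innate lymphoid cells (ILC2s). They are Nnt, Idh2, Me3, Glud1, Gsr, Txn2, Txnrd2, Prdx3, Gpx4 and Sod2, taken by symbol, and all 10 were found among the 38697 genes of the authors' deposited table. The set was put together because Nnt was lower in the knockout, so its members were chosen by the log2 fold change of this same comparison, which is given as a description. ILC2s are tissue-resident lymphocytes that make type 2 cytokines, and here they were sorted from lungs of C57BL/6 mice treated with bleomycin, a drug that injures the lung. There were 4 samples, each a pool of 3 to 4 mice: 2 from R5/+ mice (WT) and 2 from mice of genotype R5/+Nrp1f/f (KO). R5 is an Il5 reporter allele that also carries Cre recombinase. It was present in both genotypes and the floxed Nrp1 alleles only in KO, so deletion is limited to cells that have switched on Il5. The labels give the strain as C57BL/6 without a substrain.

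The matrix enzymes of this set keep peroxides low. NADPH made in the matrix is the electron donor: Nnt, the nicotinamide nucleotide transhydrogenase of the inner membrane, passes hydride from NADH to NADP+ driven by the proton gradient, and Idh2, Me3 and Glud1 make NADPH from isocitrate, malate and glutamate. Glutathione reductase and thioredoxin reductase spend that NADPH to recharge glutathione and thioredoxin, which in turn serve the peroxidases. Sod2 supplies the peroxide, since it turns matrix superoxide into hydrogen peroxide. Nnt is also known as a gene that separates C57BL/6 substrains, because C57BL/6J carries a deletion of several of its exons.

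The values come from the authors' own test of the genotypes. BaseMean is the normalized count of a gene averaged over libraries, and a log2 fold change above 0 here means higher in KO. The targeted gene Nrp1, a co-receptor for semaphorins and VEGF, stood in the authors' deposited table at a log2 fold change of -1.18 ± 0.21 (SE) with an adjusted p of 1.27e-04. Of 19193 genes with an adjusted p, 19 (0.099%) were lower and 87 (0.453%) higher in KO at an adjusted p under 0.05. The median log2 fold change was 0.08 over all tested genes but -0.25 over the 2480 with a baseMean of at least 1000, so an abundant gene with a value near -0.25 sits with its peers. Values per library were not analysed here, so each error is the standard error that the authors' deposited table lists. Which libraries entered that fit was not established, and its p-values measure no more than the spread between them.

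The sorted cells carried their defining transcripts, and transcripts of other cells were present beside them. All 10 ILC2 markers had baseMean values in the authors' deposited table from 187 to 41644, led by Rora and Gata3. All 10 had negative log2 values with a median of -0.34, and none was called. Of them 9 had a baseMean of at least 500, a level where 89.9% of all tested genes were negative with a median of -0.24. Of 42 markers of other cells in 7 lists none was at 0, and 30 of the 41 tested were positive. Over all 19193 tested genes 10366 were positive, and below a baseMean of 500 only 32.6% were negative. The summed implied means of lung epithelial markers were 6226 in WT and 10832 in KO, those of fibroblast markers 3812 and 6648, of red cell markers 4852 and 7765, of endothelial markers 2202 and 2782, and of myeloid markers 8852 and 9979. They were lower in KO for T cell markers, at 6063 and 4108, and for B and plasma cell markers, at 3498 and 2906. These sums carry no error, and some rest largely on genes with wide ones. Sftpc stood at 0.60 ± 1.44, Col3a1 at 0.70 ± 1.22 and Hba-a1 at 0.84 ± 1.08. Lyz2, at a baseMean of 8981 and 0.14 ± 0.20, made up most of the myeloid sum. Of these markers Cd3g, a T cell receptor complex chain, was the 1 called in the authors' deposited table, at -0.96 ± 0.24 (adjusted p = 0.0292). The T cell sum rests mostly on Trbc1 (-0.46 ± 0.18), Lck (-0.59 ± 0.27) and Cd3g, at baseMean values of 2938, 983 and 963. Cd3d (-0.02 ± 1.15), Cd3e (-0.44 ± 0.71) and Cd4 (1.25 ± 1.40) were scarce, at 18.1, 51.8 and 13.8. Of the 7 tested T cell markers 6 were negative, and whether T cell content differed was not tested. The part of these other cells in the values of the 10 genes was not tested. In bulk RNA, fewer cells of a type and less RNA per cell cannot be told apart.

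Nnt (ENSMUSG00000025453) lies on the minus strand of chromosome 13, from 119335448 to 119408997 in mm10. It was listed in the authors' deposited table with a baseMean of 842, which with the fold change implies a mean of 1092 normalized counts in WT and 591 in KO. Nnt was thus listed at 54.1% of its WT level in KO. The authors' deposited table put its log2 fold change at -0.89 ± 0.23 (SE), with a 95% interval from -1.33 to -0.44 and an adjusted p of 0.0345. By p it was 9th of the 19 genes called lower. Of the 10 genes it was the only one called, and because that value chose the set, the 1 of 10 says nothing beside the 0.099% called lower over all genes.

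Among genes of like abundance Nnt stood near the low end, a place that follows from how the set was chosen and is given as a description. Of 3671 other tested genes with a baseMean from 421 to 1683, 4 had a log2 fold change below that of Nnt and the median was -0.22. Its standard error of 0.23 was close to the median error of 0.24 in that range. With all log2 values centred on genes with a baseMean of at least 1000, Nnt stood at -0.63 with an adjusted p of 0.124 and was no longer called. It also lost its call, at an adjusted p of 0.0694, when every gene in the table was adjusted for.

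The mm10 sequence is that of C57BL/6J, so gene models on it hold only the Nnt exons that this substrain retains. The GENCODE M21 model of Nnt has 5 transcripts, and the longest coding one has 17 exons. Reads from exons outside such models would not enter the gene's count. The annotation also holds a second record named Nnt (ENSMUSG00000116207) on the same strand, whose 3339 exonic bases all lie in exons of the first. That second identifier is not among the genes of the deposited table.

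**Figure D1:**
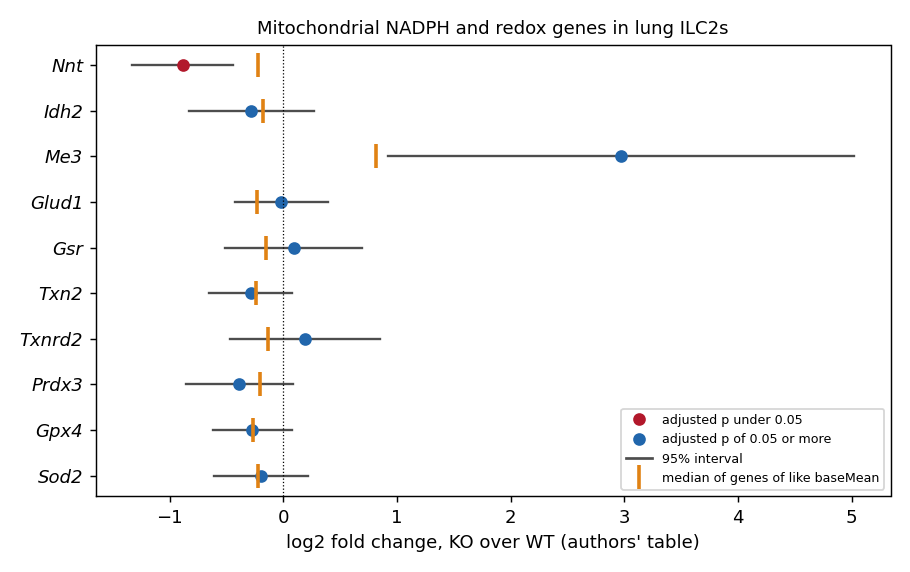
Log2 fold change of each of the 10 genes, KO over WT, from the authors' deposited table, with its 95% interval and an orange tick at the median of tested genes whose baseMean lies within a factor of 2. The interval of Nnt ends at -0.44, below 0 and below its orange tick, that of Me3 starts at 0.92, and the other 8 intervals span 0.

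Of the other dehydrogenases that feed the matrix NADPH pool, none was called, and those of higher level, Idh2 and Glud1, had values nearer 0 than Nnt. Idh2, the NADP-dependent isocitrate dehydrogenase, was listed in the authors' deposited table with a baseMean of 450 and a log2 fold change of -0.28 ± 0.28 (adjusted p = 0.704). Glud1, glutamate dehydrogenase, was listed in the authors' deposited table with a baseMean of 1160 and lay at -0.02 ± 0.21 (adjusted p = 0.983). Its implied means of 1167 in WT and 1153 in KO were the closest of the set. The 95% interval of Glud1 ran from -0.43 to 0.39 and that of Idh2 from -0.83 to 0.27. Among other tested genes within a factor of 2 in baseMean, 88.9% lay below Glud1 and 31.8% below Idh2. The log2 values of Idh2 and Glud1 were above that of Nnt by 0.60 and 0.87, differences that were not tested because Nnt was chosen by its value.

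Me3, the mitochondrial NADP-dependent malic enzyme, stood at the other end, on few reads. It was listed in the authors' deposited table with a baseMean of 31.3 and a log2 fold change of 2.97 ± 1.05, with an unadjusted p of 0.00452 and an adjusted p of 0.147, which misses the threshold. The implied means were 7.07 normalized counts in WT and 55.4 in KO. Genes this scarce were mostly listed as higher in KO: of 4244 others with a baseMean from 15.6 to 62.5, 20.2% had a negative log2 value and the median was 0.82. Me3 lay above 90.6% of them. Its exons share 569 bases with those of A230065N10Rik on the opposite strand, and without strand in the library the reads of such a pair cannot be told apart. A230065N10Rik was listed in the authors' deposited table with a baseMean of 2.11. Exonic overlaps are given here for Nnt and Me3 only, and the same limit can hold for the other members.

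In the glutathione arm, the reductase and the lipid peroxidase showed small values. Gsr, which reduces glutathione in the cytosol and the matrix, was listed in the authors' deposited table with a baseMean of 325 and lay at 0.09 ± 0.31 (adjusted p = 0.932). Among 4265 other genes with a baseMean from 162 to 650, the median was -0.15 and 81.1% lay below Gsr. Gpx4, the peroxidase that removes lipid hydroperoxides from membranes and also has a mitochondrial form, was the most abundant of the 10 at a baseMean of 5106. The authors' deposited table put its log2 fold change at -0.27 ± 0.18 (adjusted p = 0.513). The median of 681 other genes with a baseMean from 2553 to 10211 was also -0.27, so Gpx4 sat in the middle of genes as abundant as itself. The gene-level value does not separate the mitochondrial transcript of Gpx4 from the others.

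In the thioredoxin arm, the values were of both signs and none was called. Txn2, the matrix thioredoxin, was listed in the authors' deposited table with a baseMean of 1514 and lay at -0.29 ± 0.19 (adjusted p = 0.512). Prdx3, the matrix peroxiredoxin that takes electrons from Txn2, was listed in the authors' deposited table with a baseMean of 675 and lay at -0.39 ± 0.24 (adjusted p = 0.481), the lowest value after Nnt. Against 3961 genes with a baseMean from 338 to 1351, Prdx3 was 0.18 below the median and 15.8% of them were lower still. Txnrd2, the selenoprotein that recharges Txn2, was listed in the authors' deposited table with a baseMean of 288 and a positive value of 0.19 ± 0.34 (adjusted p = 0.852). Among other tested genes within a factor of 2 in baseMean, 84.9% lay below Txnrd2 and 37.7% below Txn2.

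Sod2, the manganese superoxide dismutase, is also a target of NF-kB and of inflammatory cytokines. It was listed in the authors' deposited table with a baseMean of 961 and a log2 fold change of -0.20 ± 0.21 (adjusted p = 0.732). Its median peer, over 3441 genes with a baseMean from 481 to 1923, was at -0.23. The 95% interval of Sod2, from -0.61 to 0.22, leaves room for a fall to 65.7% or a rise to 116.1% of the WT level.

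Over the set, 7 of 10 log2 values were negative and the median was -0.23. Of the 9 genes other than Nnt, 6 were negative with a median of -0.20, and 8 had an interval spanning 0. All 6 members with a baseMean of at least 500 were negative, as were 89.9% of the 4492 tested genes at that level, whose median was -0.24. Of the 4 members below 500, 1 was negative, against 32.6% of tested genes. Split at 500, the signs of most members were those of most tested genes. In closer ranges the signs of Gsr and Txnrd2, whose intervals span 0, were not those of most genes. Both were positive, while 72.0% and 68.7% of other genes within a factor of 2 of their baseMean were negative. When centred on genes with a baseMean of at least 1000, Glud1 and Sod2 turned positive, 5 of 10 were negative and the median was 0.02. On that scale 4573 of all 19193 tested genes, most of them scarcer than the members, were negative and their median was 0.33. At an unadjusted p under 0.05, Nnt was lower and Me3 higher, beside 3.95% of all tested genes lower and 9.62% higher.

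**Figure D2:**
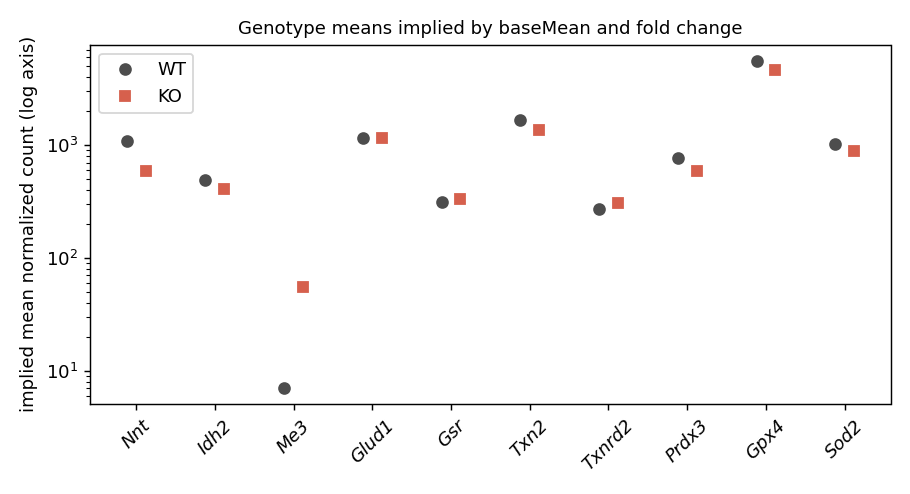
Mean normalized count of each gene in WT (grey circles) and KO (red squares) on a log axis, as implied by baseMean and the fold change of the authors' deposited table with equal weight for both genotypes. Nnt drops from 1092 to 591 and Me3 stands at 7.07 and 55.4, while the other symbol pairs lie close together.

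Levels between genes were compared per kilobase of exonic length. On that scale Gpx4 was highest, at 2962 normalized counts per kb, followed by Prdx3 at 457, Txn2 at 360, Glud1 at 276 and Idh2 at 174. Nnt was 6th at 120, next to Gsr at 118, and Sod2 (96.1), Txnrd2 (65.4) and Me3 (2.14) were lower. The peroxidase Gpx4 and the Prdx3 and Txn2 pair were thus measured at higher levels than any of the NADPH-making enzymes. With the longest transcript as length, Nnt was again 6th at 243 per kb, while Txn2 (739) passed Prdx3 (457) and Sod2 (164) passed Gsr (122), so the order of those neighbours depends on the length taken. Spread between libraries was not analysed here, so neighbours in this order cannot be separated.

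Promoter sequences from RefSeq (GRCm38.p6) matched 8 of the 10 genes, with 11 windows of 250 bases before a start, and Nnt and Gsr were not matched. They are shown for the gene with the highest value, Me3, and for Prdx3 and Txn2, partners in the same relay with like values. Capitals mark GC boxes (GGGCGG, either strand) and CCAAT boxes (CCAAT, either strand).
Me3 (chr7:89632568-89632817, plus strand): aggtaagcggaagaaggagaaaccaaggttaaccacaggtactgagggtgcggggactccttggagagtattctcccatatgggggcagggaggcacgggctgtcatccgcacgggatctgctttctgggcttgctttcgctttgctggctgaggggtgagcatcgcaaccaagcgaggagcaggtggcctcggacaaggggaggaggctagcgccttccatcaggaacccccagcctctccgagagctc
Prdx3 (chr19:60874539-60874788, minus strand): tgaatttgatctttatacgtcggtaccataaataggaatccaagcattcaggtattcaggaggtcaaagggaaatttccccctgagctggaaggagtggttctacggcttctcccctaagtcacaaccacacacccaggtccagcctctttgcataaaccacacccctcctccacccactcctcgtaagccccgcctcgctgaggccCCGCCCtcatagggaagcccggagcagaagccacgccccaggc
Txn2 (chr15:77928995-77929244, minus strand): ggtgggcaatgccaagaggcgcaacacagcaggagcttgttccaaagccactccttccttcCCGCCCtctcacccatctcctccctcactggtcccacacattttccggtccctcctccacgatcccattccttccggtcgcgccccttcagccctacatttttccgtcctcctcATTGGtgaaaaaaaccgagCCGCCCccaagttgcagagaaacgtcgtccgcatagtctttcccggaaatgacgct

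The window of Txn2 holds 2 GC boxes and 1 CCAAT box, that of Prdx3 holds 1 GC box, and that of Me3 holds neither. The Me3 window lies inside the GENCODE M21 model of Me3, which starts at 89632392. Sequence upstream of that start was not read. Of the 11 windows, 9 held a GC box and 6 a CCAAT box, beside 32.7% and 33.8% of all 32851 windows of the same length. Windows of 1 gene can overlap and are not independent. By gene, each of the 8 matched genes except Me3 had a window with a GC box, and Gpx4, Idh2, Sod2 and Txn2 had one with a CCAAT box. The antioxidant response element core (TGACNNNGC, either strand), the letters NRF2 is known to bind, was in 10.2% of all windows and in 0 of the 11. These are matches of letters only.

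Beyond the set, 81 tested genes in 5 lists describe the rest of NADPH supply and peroxide removal in the same cells. None of the 81 was called in either direction, and the smallest adjusted p was 0.206. At an unadjusted p under 0.05, 8 (9.88%) were lower and 1 (1.23%) higher, beside 3.95% and 9.62% of all tested genes, and the median of the 81 was -0.11. Those shares are not of like abundance. The median baseMean of the lists ran from 361 to 985, beside 85.3 over all tested genes. No gene of these lists had a log2 value as low as that of Nnt, the lowest being -0.64. Nnt was chosen for its low value, so that comparison is a description only. Signs within the lists depend on the scale. Centred on genes with a baseMean of at least 1000, negative values numbered 12 of 18 for matrix enzymes and carriers and 6 of 12 for cytosolic NADPH supply. They numbered 7 of 25 for glutathione, 3 of 17 for other thioredoxin and peroxide genes and 2 of 17 for the NRF2 pathway. The medians in that order were -0.10, -0.01, 0.18, 0.18 and 0.29. Over all tested genes on that scale 4573 of 19193 were negative and the median was 0.33, again not of like abundance.

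Of 18 matrix enzymes and carriers around the NADPH pool, 16 were negative with a median of -0.36, including all 10 with a baseMean of at least 500, a level where 89.9% of all tested genes were negative. Mdh2, malate dehydrogenase, stood in the authors' deposited table at -0.41 ± 0.18 (adjusted p = 0.245) and Ogdh, of the oxoglutarate dehydrogenase complex, at -0.35 ± 0.17 (0.336). Me2, the NAD-linked malic enzyme, lay in the authors' deposited table at -0.46 ± 0.22 (adjusted p = 0.326), opposite in sign to Me3. Each sign was that of most tested genes at like baseMean, which was 911 for Me2 and 31.3 for Me3. Nadk2, the kinase that makes matrix NADP+, lay in the authors' deposited table at 0.40 ± 0.35 (adjusted p = 0.656). Mthfd2 of mitochondrial folate metabolism was in the authors' deposited table at 0.00 ± 0.48.

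Cytosolic NADPH supply had 9 of 12 genes negative and a median of -0.27. Tkt, transketolase of the pentose phosphate pathway, had the smallest p of all 81 genes in the authors' deposited table, standing at -0.47 ± 0.19 (adjusted p = 0.206). G6pdx, which starts that pathway, stood in the authors' deposited table at -0.39 ± 0.29 and Pgd at -0.18 ± 0.26 (adjusted p of 0.573 and 0.817). Idh1 and Me1, the cytosolic relatives of Idh2 and Me3, lay in the authors' deposited table at -0.20 ± 0.44 and 0.96 ± 0.81. Me1, like Me3, was scarce in the authors' deposited table, with a baseMean of 43.0.

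Glutathione genes were split, with 13 of 25 negative and a median of -0.07. Gclc and Gclm, the subunits of the rate-limiting ligase, stood in the authors' deposited table at 0.04 ± 0.31 and 0.58 ± 0.63. Slc3a2, the amino acid transporter chain and the most abundant of the list at a baseMean of 9191, was in the authors' deposited table at -0.19 ± 0.15 (adjusted p = 0.611), and Slc7a11, its partner in cystine import, was at 1.25 ± 0.73 (0.451) on a baseMean of 50.8. Gpx1, the cytosolic and mitochondrial glutathione peroxidase, lay in the authors' deposited table at -0.08 ± 0.19 (adjusted p = 0.895). Slc25a39, which carries glutathione into mitochondria, lay in the authors' deposited table at -0.23 ± 0.24 (adjusted p = 0.722).

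Of 17 other thioredoxin, peroxide and superoxide genes, 14 were negative with a median of -0.08. Prdx6 was the most abundant of them in the authors' deposited table, with a baseMean of 29323 and a log2 fold change of -0.18 ± 0.14 (adjusted p = 0.600). Catalase (Cat) had the smallest p of this list in the authors' deposited table, standing at -0.39 ± 0.19 (adjusted p = 0.358). Txn1 and Txnrd1, the cytosolic counterparts of Txn2 and Txnrd2, lay in the authors' deposited table at -0.06 ± 0.22 and -0.09 ± 0.24, and Sod1, the counterpart of Sod2, at 0.11 ± 0.18.

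In the NRF2 pathway, which controls many of these genes, 8 of 17 were negative and the median was 0.04. Keap1, the adaptor that marks NRF2 for degradation, stood in the authors' deposited table at -0.62 ± 0.28 (adjusted p = 0.277), and Bach1, a repressor of NRF2 targets, at 0.55 ± 0.28 (0.358). Nfe2l2, which encodes NRF2, lay in the authors' deposited table at -0.23 ± 0.19 (adjusted p = 0.632). Fth1, the ferritin heavy chain and the most abundant of the list, stood in the authors' deposited table at -0.12 ± 0.16 (adjusted p = 0.798). The targets Hmox1 and Srxn1 lay in the authors' deposited table at 0.28 ± 0.47 and -0.07 ± 0.33 (adjusted p of 0.846 and 0.955).

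**Figure D3:**
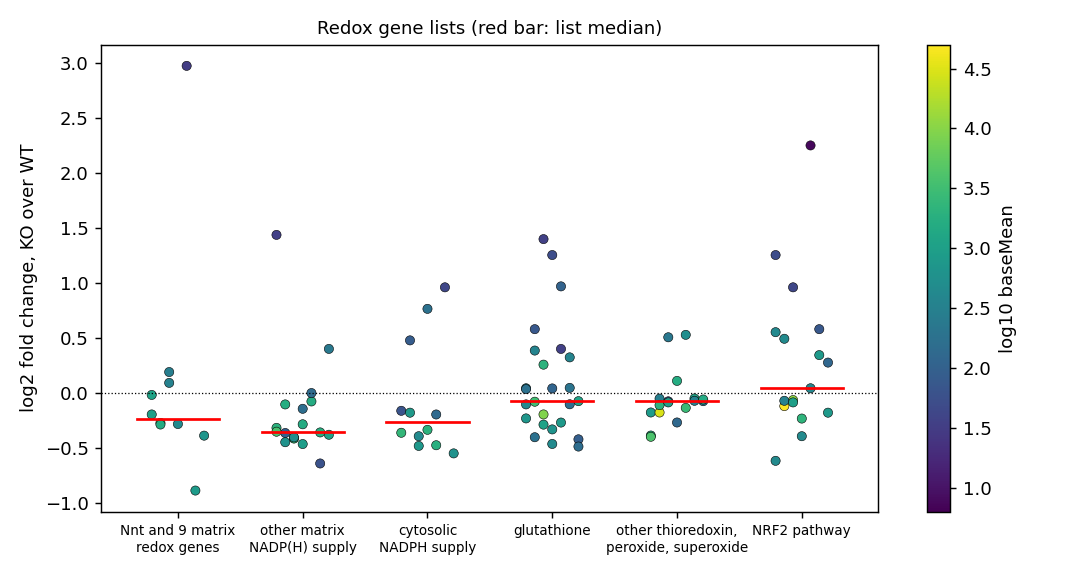
Log2 fold change, KO over WT, of every tested gene in the set and the 5 redox lists, coloured by log10 baseMean, with a red bar at the list median. Medians run from -0.36 to 0.04, the points above 1 are scarce genes, and Nnt at -0.89, chosen for its low value, is the lowest point.

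The genes around Nnt on chromosome 13 were read for their own values, as a description. Nnt was chosen by its value and its neighbours by position, so the 2 are not compared by a test. Of 20 other protein-coding genes within 1 Mb, 9 were tested and none was called, at an adjusted p or at an unadjusted p under 0.05. Their median was 0.29, with 6 positive and 3 negative, beside a median of 0.08 and 46.0% negative over all tested genes. The 3 negative ones were those with a baseMean of at least 500, a level where 89.9% of all tested genes were negative. Paip1, a regulator of translation, starts 19.6 kb from the Nnt start and lay in the authors' deposited table at 0.52 ± 0.47 (adjusted p = 0.667). The next gene, 4833420G17Rik, was of like abundance to Nnt at a baseMean of 766 and lay in the authors' deposited table at -0.13 ± 0.23 (adjusted p = 0.848). Hmgcs1, an enzyme of cholesterol synthesis 281 kb away, was the lowest of the 9 in the authors' deposited table, standing at -0.52 ± 0.28 (adjusted p = 0.412), followed by Zfp131 with -0.34 ± 0.23 (0.539). Mrps30, a mitochondrial ribosomal protein, stood in the authors' deposited table at 0.02 ± 0.39. Fgf10 (1.68 ± 1.03), Nim1k (0.99 ± 0.74), Ccl28 (2.25 ± 2.15) and BC147527 (0.29 ± 1.25) had few reads, their levels in the authors' deposited table running from a baseMean of 6.95 to 57.7. The 11 untested neighbours had a baseMean of at most 4.21.

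**Figure D4:**
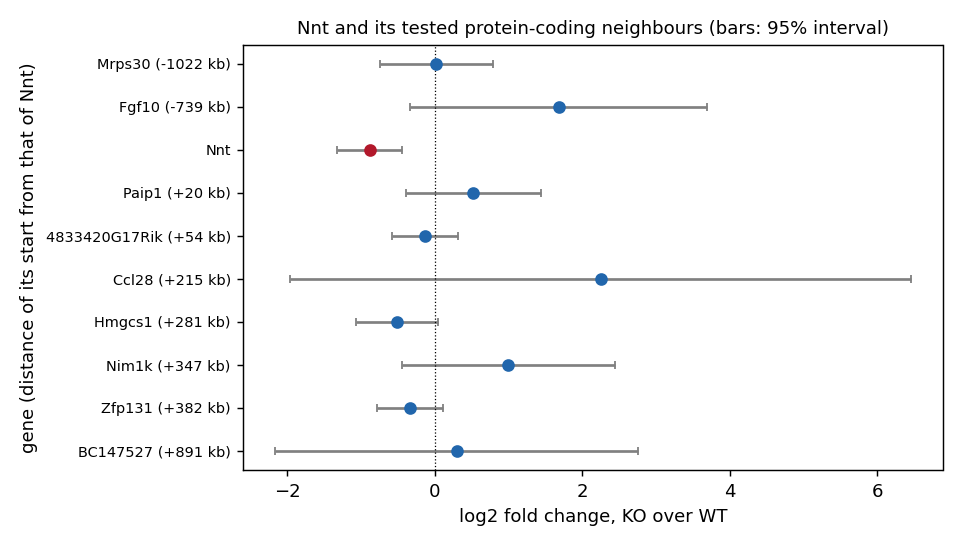
Log2 fold change, KO over WT, of Nnt (red, called) and the 9 tested protein-coding genes within 1 Mb (blue, not called), ordered by the distance of their starts from that of Nnt, with 95% intervals. The interval of Nnt, a gene chosen for its low value, lies below 0 and those of the 9 neighbours span 0.

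Other genes described as carrying variants that separate C57BL/6 substrains or colonies were also read. Ide, the insulin-degrading enzyme, stood in the authors' deposited table at -0.42 ± 0.18 (adjusted p = 0.245) and Cyfip2, an actin regulator, at -0.41 ± 0.15 (0.162), both at baseMean values above that of Nnt. Wdfy1 lay in the authors' deposited table at 0.74 ± 0.30 (adjusted p = 0.209) at a baseMean of 466. Crb1 (5.88 ± 2.07, adjusted p = 0.145) and Nlrp12 (3.10 ± 1.51, 0.334) were scarce, at baseMean values of 12.6 and 12.2, and Fgfbp3, at 5.88, had no adjusted p in the authors' deposited table. Entpd4 was not matched by symbol. Of the 5 tested genes of this list other than Nnt, none was called. At an unadjusted p under 0.05, 2 of the 5 were lower and 3 higher, beside 3.95% and 9.62% of all tested genes. Some of these variants alter the protein and not the transcript level, the list was chosen with results of these data known, and whether the pools differed in substrain was not tested.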

How the data were processed

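RNA was measured in sorted lung ILC2s, 2 WT and 2 KO pools grouped by their titles. Per the labels' protocols, RNA was extracted with Trizol and copied with the SMART-Seq HT kit into full-length cDNA, and nothing there says that strand was kept. The submitters' processing notes name HISAT2, Cufflinks and mm10 but not what each was used for. For the counter, the annotation release and any filters, the answer is "not given in the sources used here". Per the file headers, the authors deposited for each gene a baseMean (a normalized signal averaged over libraries), a log2 fold change, its standard error, a test score, a p-value and its adjusted value, under the headings DESeq2 uses for results. The score equalled fold change over error within 5.35e-08. Benjamini-Hochberg adjustment of the 19193 genes at or above a baseMean of 6.71 matched the deposited adjusted p within 3.96e-05.

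The table names WT first, so the sign was turned to give KO over WT. With the opposite reading all directions turn, Nrp1 included. The table's 8 columns of values per library carry codes found in no sample label. No sample was given to them and no result uses them, although some were seen when the file was opened. The planned edgeR fit was therefore replaced by the authors' test. The 95% intervals assume normal errors on the log2 scale. Genotype means were derived from baseMean and fold change with equal weight for the genotypes. Gene positions and lengths came from GENCODE M21 (mm10), which matched 38388 of 38697 identifiers. Adjustment and centring in Python 3.11.15 were tested on simulated data. The members and gene lists were chosen with earlier results of these data known. Named genes are the members, Nrp1, tested neighbours of Nnt, the substrain list, called genes, and, from each list, genes with the smallest p or highest baseMean. Some further list genes (such as Nadk2, Idh1, Gclc and Txn1) were named for their role after their values were seen. The motifs and the 3 promoters shown were also chosen after values were seen. One result is not reported here.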

Additional observations from a re-analysis of the deposited data

How the results depend on the processing

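No paired analysis was possible because values per library could not be matched to samples, and for the same reason no fit without a pool and no other count model was run. As deposited, 106 genes were called, 87 of them higher and 19 lower in KO. With no filter on low values the counts were 23, 21 and 2. Keeping baseMean values of 50 or more gave 35 calls, 22 of them higher, and keeping protein-coding genes gave 56 and 39. A threshold of 0.1 gave 306, 266 and 40, and centring on genes with a baseMean of at least 1000 gave 227, 225 and 2. When log2 values were centred on all tested genes, 38 were lower, a setting added for these counts after the data had been seen. Filters differ in how many genes they adjust for, and the cause of the other changes was not tested. Of the 10 redox genes, 1 was called as deposited, 0 with no filter and 0 when centred on abundant genes. Nnt was called with baseMean values of 50 or more (adjusted p = 0.0413), with protein-coding genes (0.0411) and when centred on all tested genes (0.0137, at -0.96), and was not with no filter (0.0694) or when centred on abundant genes (0.124). That centring turned Glud1 to 0.23 (adjusted p = 0.758) and Sod2 to 0.056 (0.978). In the other 55 comparisons of a redox gene and a setting, direction and side of the threshold were as deposited. The share of genes of like baseMean below Nnt was 0.109% within a factor of 2 and 0.180% within 20%. Few reads limit Me3, whose 95% interval runs from 0.92 to 5.02 on the log2 scale.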
